A study of Mus musculus with 3 samples.

Results

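The 4 Janus kinases and 4 genes that feed back on them were followed in a chromatin immunoprecipitation sequencing (ChIP-seq) study of H3K36me3 in mouse regulatory T (Treg) cells. The kinases were Jak1, Jak2, Jak3 and Tyk2, and the feedback genes were Socs1, Socs2, Socs3 and Cish. They were chosen by name, and their H3K36me3 was read from the peaks whose midpoint lay in the GENCODE M21 body of the gene. All 8 had a peak, and together they held 82 of the 120910 peaks. Of 55450 annotated genes, 11948 had a peak and 10887 had at least 20 RPKM over both libraries, the level set for a ratio to be given. All 8 genes were among these 10887, which are called the genes tested below.

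Treg cells were sorted as CD3+CD4+Foxp3-YFP+ cells from the spleen and the large intestine of C57BL/6 Foxp3Cre-YFP mice at steady state, in which a Cre-YFP fusion is made from the Foxp3 locus and marks the cells. Both groups carried this allele, neither received an agent, and Setd2, which writes the mark, was not deleted in either. Cells of several mice of both sexes were pooled, adult mice being the general rule of the study, and an input of splenic Treg chromatin was not used here. Each tissue was 1 library, so there is no replicate check for any difference below.

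JAKs are tyrosine kinases held on the intracellular tails of cytokine receptors. When a cytokine binds, they phosphorylate the receptor and the STAT proteins that dock on it, and the STATs enter the nucleus and switch on target genes. SOCS proteins and CIS, the product of Cish, are among those targets and act back on the receptor or the kinase, so their genes report and limit cytokine signalling. In Treg cells IL-2 acts through Jak1, Jak3 and STAT5, which maintain Foxp3. H3K36me3 is histone H3 with 3 methyl groups on lysine 36. It is laid down by Setd2 behind elongating RNA polymerase II and lies over the bodies of transcribed genes.

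Values are mean RPKM, read coverage per kilobase scaled to sequencing depth, averaged over a peak. Summing a gene's peaks gives each peak the same weight whatever its length. The log2 ratio, with the large intestine over the spleen, was taken after adding 0.5 RPKM and scaling each library to its total over all peaks, which lowered every ratio by 0.046, so a positive ratio means more signal in the large intestine. Each ratio has an approximate 95% interval that treats every read as an independent molecule covering 200 bp. It covers counting error only, and it narrows if reads cover less.

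The depth read from the values was 29600000 reads in spleen and 38100000 in the large intestine, and the median peak value was 10.4 and 10.5 RPKM. Ratios of the genes tested had a median of 0.0049, and the middle 50% of them lay between -0.20 and 0.24. The ratios followed base composition. The 10% of peaks lowest in GC content (39.5% or less) had a median of -0.41 and the 10% highest (54.1% or more) a median of 0.29. For this reason GC-corrected ratios stand beside the gene ratios and list medians below, and the part of base composition in them was not tested otherwise. All 9 Treg and T cell markers examined, Foxp3 and Cd4 among them, had a peak. Higher in the large intestine were 4 (50.7% of the genes tested were), 2 with an interval above 0 (17.9%). The other 5 were higher in spleen, 3 with an interval below 0 (15.2%). Ikzf2 was the lowest (1205.0 and 850.7 RPKM, -0.55, and -0.35 after GC correction). Tnfrsf18 was the highest (33.7 and 61.1 RPKM, 0.80, and 0.65 after GC correction). Of 9 intestinal epithelium markers, Epcam and Vil1 had a peak, their sum was 29.9 RPKM in spleen and 59.8 RPKM in the large intestine, and Cdh1, Cdx2, Krt8, Krt18, Krt20, Lgr5 and Muc2 had none. The B cell markers Cd22, Cd79a, Cd79b and Pax5 had a peak and summed to 72.6 RPKM in spleen and 53.7 RPKM in the large intestine, and Ms4a1 had none. These 4 went in both directions. Cd22 (12.4 and 0.25 RPKM) and Cd79a (47.2 and 29.8 RPKM) were higher in spleen, and Cd79b (8.96 and 13.7 RPKM) and Pax5 (4.05 and 9.91 RPKM) in the large intestine. Myeloid markers with a peak numbered 2 of 6 (29.7 and 31.3 RPKM), CD8 T cell markers 1 of 2 (21.1 and 9.46 RPKM, with no peak in Cd8a) and innate lymphoid and NK cell markers 0 of 3. The part of other cells in the ratios was not tested.

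H3K36me3 was higher in large intestinal than in splenic Treg cells at 7 of the 8 genes, where 50.7% of the genes tested were higher in the large intestine. The exception was Jak1. The number was 6 of 8 with peaks that overlap the body, 6 of 8 with the body extended by 5 kb and 5 of 7 by nearest transcript start. The interval lay above 0 for Jak2, Jak3, Tyk2, Socs2 and Cish, 5 of 8, against 17.9% of the genes tested, and below 0 for Jak1 alone, against 15.2%. None of the 8 was past 2-fold, while 3.42% of the genes tested were past 2-fold toward the large intestine and 2.04% toward the spleen. The median ratio was 0.34 for the kinases and 0.39 for the feedback genes. Corrected for GC, Jak1 was at -0.37, Jak2 at 0.50, Jak3 at 0.16 and Tyk2 at 0.24. Among the feedback genes, Socs1 was at -0.13, Socs2 at 0.49, Socs3 at -0.16 and Cish at 0.45. No order of the groups is read from these medians. After GC correction 5 of the 8 were higher in the large intestine, with 4 intervals above 0, those of Jak2, Tyk2, Socs2 and Cish. Over all genes tested under the same correction, 46.9% were higher in the large intestine and 11.9% had an interval above 0. With reads taken to cover 75 bp, 7 of the 8 intervals lay above 0, against 28.2% of the genes tested. More cells with the mark and more mark per cell cannot be told apart in these pools.

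**Figure D1:**
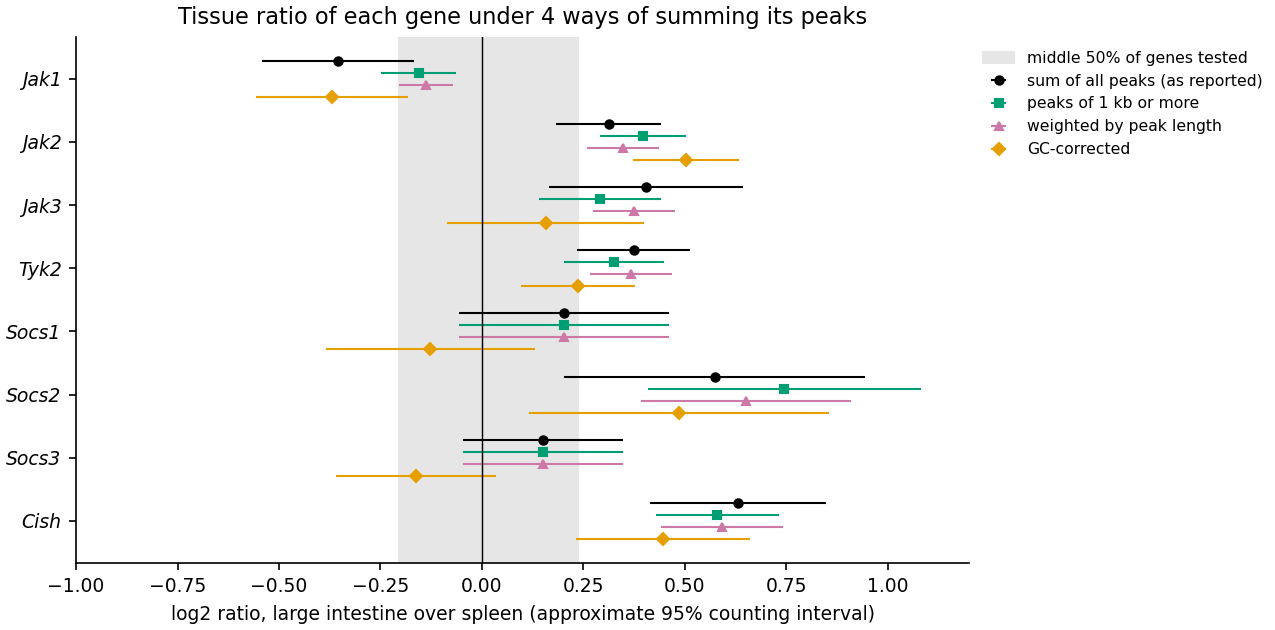
Log2 ratio of the large intestine over the spleen for each gene (x axis), with bars for the approximate 95% counting interval, from all peaks summed, from peaks of 1 kb or more, from peaks weighted by length and after GC correction. The grey band is the middle 50% of the genes tested. Jak1 lies left of 0 in all 4, and Jak2, Jak3, Tyk2, Socs2 and Cish lie right of 0 in all 4. The GC-corrected interval of Jak3 takes in 0, and Socs1 and Socs3 cross to the left after GC correction.

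Among the kinases, Jak1 stood apart. Jak1 pairs with the receptors of IL-2, IL-4, IL-7, IL-15 and IL-21, with gp130 and with interferon receptors. Its gene (ENSMUSG00000028530.14, mm10 chromosome 4, 101152367 to 101265282, minus strand, 112916 bp) held 21 peaks that summed to 282.1 RPKM in spleen and 227.7 RPKM in the large intestine. The ratio was -0.35 (-0.54 to -0.17), a level 1.28 times as high in spleen, and 17 of the 21 peaks were higher in spleen. Among the genes tested, 13.9% had a lower ratio. GC correction gave -0.37 (-0.56 to -0.18) for Jak1. Each of the 7 pairs that set Jak1 against another of the 8 genes differed beyond counting error, with intervals not adjusted for the 28 pairs compared. The ratio of Jak1 was 0.67 below that of Jak2 (the difference was -0.67, -0.89 to -0.44), 0.76 below that of Jak3 (-0.76, -1.06 to -0.45) and 0.73 below that of Tyk2 (-0.73, -0.96 to -0.50). After GC correction 5 of the 7 pairs still differed, and those with Socs1 and Socs3 did not.

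The Jak1 signal was concentrated toward the end of the gene. Of 3 equal segments of its body, peaks covered 3.95% of the first, 18.4% of the middle and 97.2% of the last, and 99.8% of the coding bases lay under a peak. The highest peak, 17886 bp long, ran over the end of the gene and had 29.6 RPKM in spleen and 30.3 RPKM in the large intestine, a ratio of -0.011 (-0.10 to 0.082). It reached 2436 bp past the body, into Raver2, whose end meets that of Jak1. A 10246-bp peak farther upstream had 25.5 RPKM in spleen and 20.9 RPKM in the large intestine (-0.33, -0.47 to -0.19), and the 3919-bp peak between them had 20.1 and 19.4 RPKM (-0.095, -0.34 to 0.15). Of the 6 long peaks the 10246-bp peak alone had an interval off 0.

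Much of the summed Jak1 difference came from short peaks of low signal. The 6 peaks of 1 kb or more covered 42659 bp, summed to 128.4 RPKM in spleen and 118.9 RPKM in the large intestine, and all 6 were higher in spleen, the 17886-bp peak only after the scaling, with a ratio of -0.16 (-0.25 to -0.063). The 15 shorter peaks covered 4795 bp, summed to 153.7 and 108.8 RPKM, and gave -0.54 (-0.90 to -0.19). Weighted by length the gene's ratio was -0.14 (-0.21 to -0.072), and the direction was unchanged. The interval took in 0 with the strongest peak alone (-0.011) and with peaks assigned to the nearest transcript start (-0.043, -0.26 to 0.17). The short peak with the firmest spleen excess was 698 bp long and had 11.6 RPKM in spleen and 4.32 RPKM in the large intestine (-1.38, -2.31 to -0.45). The short peaks that went the other way rested on few reads. The peak nearest the gene's start had 2.84 and 9.26 RPKM (1.50, -0.042 to 3.05), and one inside the gene had 5.93 and 11.9 RPKM (0.90, -0.41 to 2.21), so neither differed beyond counting error.

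Jak2 showed the opposite direction along most of its length. Jak2 serves the receptors of erythropoietin, growth hormone and interferon gamma, and those of IL-12 and IL-23 together with Tyk2. The gene (ENSMUSG00000024789.13, chromosome 19, 29251828 to 29313080, plus strand, 61253 bp) held 36 peaks over 76.0% of its body. They summed to 360.0 RPKM in spleen and 461.4 RPKM in the large intestine, a ratio of 0.31 (0.18 to 0.44), and 28 of the 36 were higher in the large intestine. The interval of 9 peaks lay above 0 and of none below 0. The 3 peaks with the most signal had 16.7 and 23.9 RPKM (0.46, 0.18 to 0.73), 15.4 and 23.1 RPKM (0.52, 0.040 to 1.01), and 16.9 and 20.4 RPKM (0.22, -0.10 to 0.53) in spleen and large intestine. They lay between 23.7 and 42.5 kb from the start of the gene. Jak2 is AT-rich, with a median peak GC content of 41.2% against 46.5% over all peaks, and GC correction raised its ratio to 0.50 (0.37 to 0.63).

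The peaks with the firmest large intestinal excess in Jak2 were toward its start. A 921-bp peak 1.88 to 2.80 kb into the gene had 3.46 RPKM in spleen and 13.1 RPKM in the large intestine (1.74, 0.84 to 2.63), and a 1528-bp peak at 12.8 to 14.4 kb had 9.90 and 18.5 RPKM (0.82, 0.34 to 1.31). Of the 8 peaks higher in spleen, a 409-bp peak with 13.7 and 7.45 RPKM (-0.88, -1.90 to 0.15) and a 3789-bp peak with 14.8 and 15.3 RPKM (-0.0061, -0.29 to 0.27) had the upper bounds closest to 0. The 3789-bp peak counts as higher in spleen only after the scaling.

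The central 300 bases of the 698-bp Jak1 peak and of the 921-bp Jak2 peak are shown, because these peaks had the most extreme intervals of their genes in opposite directions. Both are written on the plus strand of GRCm38, the assembly of mm10, with CpG dinucleotides in capitals. Each stretch holds 2 CpGs, and the whole peaks have similar GC contents of 47.6% and 45.3%, near the median of all peaks. For the Jak1 peak GC correction left the ratio at -1.41 and for the Jak2 peak at 1.78. Their positions are chr4:101197605-101197904 and chr19:29254022-29254321.
Jak1 peak: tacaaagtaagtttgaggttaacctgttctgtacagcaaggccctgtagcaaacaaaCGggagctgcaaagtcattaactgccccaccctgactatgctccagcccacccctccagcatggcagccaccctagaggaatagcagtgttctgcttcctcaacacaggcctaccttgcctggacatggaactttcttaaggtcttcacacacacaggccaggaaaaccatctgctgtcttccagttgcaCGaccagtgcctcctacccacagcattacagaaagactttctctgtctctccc
Jak2 peak: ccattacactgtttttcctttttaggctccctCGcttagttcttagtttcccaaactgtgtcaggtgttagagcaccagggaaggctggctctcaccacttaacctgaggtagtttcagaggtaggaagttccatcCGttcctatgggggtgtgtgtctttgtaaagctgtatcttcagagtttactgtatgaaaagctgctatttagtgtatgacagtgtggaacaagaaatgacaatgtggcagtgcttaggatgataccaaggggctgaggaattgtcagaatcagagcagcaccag

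**Figure D2:**
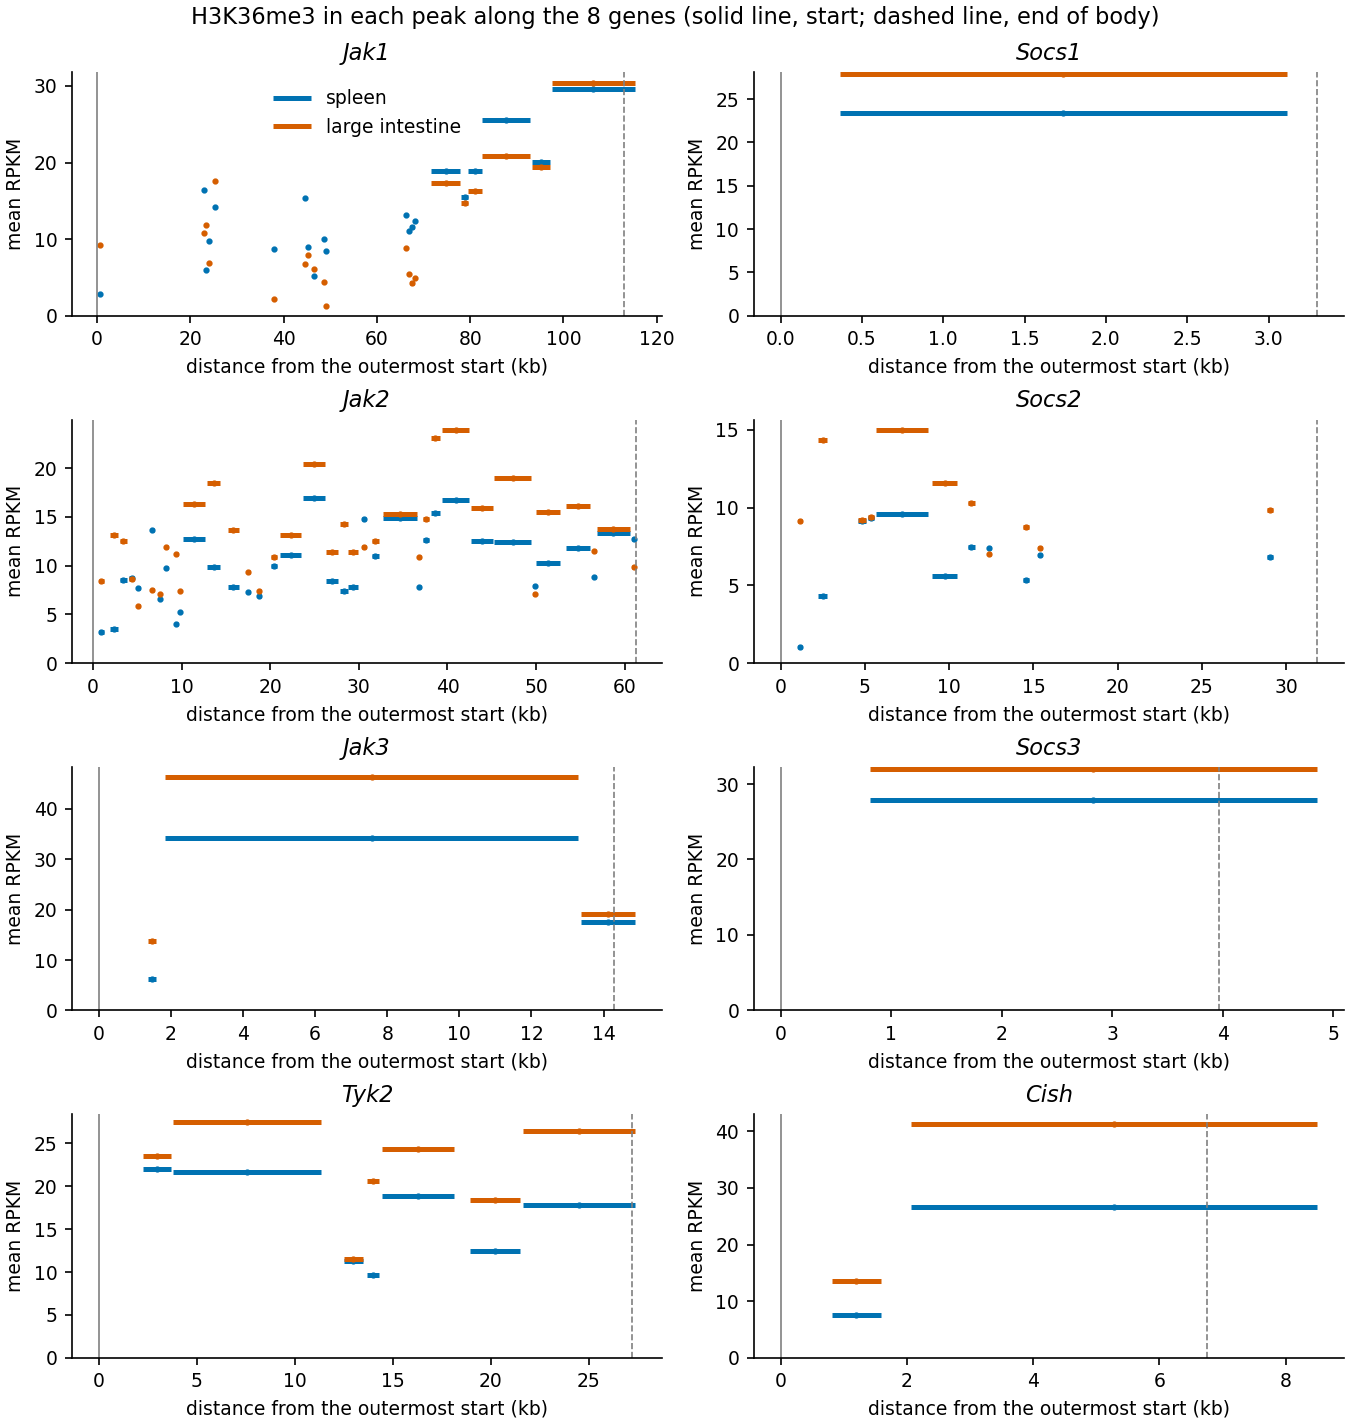
Mean RPKM of every peak (y axis) against distance from the outermost start of the gene in kb (x axis) for the 8 genes, with spleen in blue and large intestine in orange. Bars span the peak, points mark its middle, and the solid and dashed lines mark the start and the end of the body. Jak1 signal lies mostly in the last part of the gene with the bars of the tissues close together or spleen above, whereas the orange bars are above the blue along Jak3 and Cish and most of Jak2.

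Jak3, which works with the common gamma chain of the IL-2 receptor family, had the highest H3K36me3 per base of the 8 genes in both tissues. The gene (ENSMUSG00000031805.17, chromosome 8, 71676296 to 71690575, plus strand, 14280 bp) held 3 peaks over 88.1% of its body, and all 3 were higher in the large intestine. Their sums were 57.9 RPKM in spleen and 79.3 RPKM in the large intestine, a ratio of 0.40 (0.16 to 0.64). Its 11442-bp peak had 34.2 and 46.3 RPKM (0.39, 0.28 to 0.49), so this peak differed beyond counting error. A 235-bp peak near the start had 6.18 and 13.8 RPKM (1.05, -0.43 to 2.53), and the 1499-bp peak over the end had 17.6 and 19.2 RPKM (0.082, -0.33 to 0.49). These did not differ beyond counting error.

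The Jak3 ratio moved more with GC correction than those of the other kinases. The 11442-bp peak had a GC content of 57.6%, its ratio after GC correction was 0.10, and that of the gene was 0.16 (-0.086 to 0.40), no longer beyond counting error. Insl3, a gene of the testis and ovary, lies on the same strand over the end of Jak3 and takes in the midpoint of the peak over the end. The 11442-bp peak also runs into Insl3, so 2 of the 3 peaks touch it, and 1 peak touches B3gnt3. Signal over the shared stretch cannot be told apart between these genes.

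Tyk2, which serves the type I interferon, IL-10, IL-12 and IL-23 receptors, was higher in the large intestine in 6 of its 7 peaks. The gene (ENSMUSG00000032175.11, chromosome 9, 21104068 to 21131243, minus strand, 27176 bp) was covered over 82.5% of its body, and its peaks summed to 113.7 RPKM in spleen and 152.2 RPKM in the large intestine. The ratio was 0.37 (0.24 to 0.51), and 0.24 (0.096 to 0.38) after GC correction. The tissues lay closer at the start of the gene than at its end. Over 3 equal segments from start to end, the mean level of covered bases was 21.7, 17.9 and 16.1 RPKM in spleen and 26.6, 23.3 and 23.9 RPKM in the large intestine. The difference between segments was not tested.

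The 3 Tyk2 peaks with the most signal had 21.6 and 27.5 RPKM (0.29, 0.13 to 0.45), 21.9 and 23.5 RPKM (0.053, -0.33 to 0.43), and 17.8 and 26.4 RPKM (0.51, 0.32 to 0.71). The last of these lies at the end of the gene and was the one with the firmest difference. A 653-bp peak in the middle had 9.69 and 20.6 RPKM (1.01, 0.28 to 1.74). The 981-bp peak that was higher in spleen had 11.3 and 11.5 RPKM (-0.020, -0.65 to 0.61), which reads as higher in spleen only after the scaling. An antisense transcript, 1700084C06Rik, overlaps all 7 peaks. ChIP-seq has no strand, so the mark on Tyk2 and on this transcript cannot be told apart. The neighbouring protein-coding genes had 0.18 (-0.014 to 0.38, Raver1) and 0.039 (-0.23 to 0.31, Cdc37).

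Of the feedback genes, Cish and Socs2 had an interval above 0 and Socs1 and Socs3 did not. Cish, a STAT5 target whose product docks on the IL-2 receptor beta chain and competes with STAT5, had the highest ratio of the 8 genes as summed, though within counting error of Socs2 (Socs2 minus Cish was -0.057, -0.49 to 0.37). Cish was also within counting error of Jak3 (Jak3 minus Cish was -0.23, -0.55 to 0.097) and of Tyk2 (Tyk2 minus Cish was -0.26, -0.51 to 0.0011). Weighted by peak length Socs2 was higher (0.65 and 0.59), and after GC correction Jak2 and Socs2 were. The gene (ENSMUSG00000032578.7, chromosome 9, 107296026 to 107302784, plus strand, 6759 bp) held 2 peaks over 81.1% of its body. A 791-bp peak had 7.57 RPKM in spleen against 13.6 RPKM in the large intestine (0.76, -0.0036 to 1.52), and a 6426-bp peak over most of the gene had 26.6 and 41.3 RPKM (0.58, 0.43 to 0.73). The sums were 34.2 and 54.9 RPKM, a ratio of 0.63 (0.41 to 0.85), which is 1.55 times as high in the large intestine, and 91.6% of the genes tested had a lower ratio. GC correction left 0.45 (0.23 to 0.66).

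Beyond the Cish gene the direction was the same. Its long peak reached 1738 bp past the body, and the 3 peaks within 5 kb downstream had 6.44 and 16.5 RPKM (1.25, -0.081 to 2.58), 3.73 and 9.94 RPKM (1.26, -0.15 to 2.67) and 6.71 and 11.6 RPKM (0.70, -0.28 to 1.69). Each was higher in the large intestine, none beyond counting error. The nearest protein-coding genes were also higher there, Mapkapk3 with 0.45 (0.28 to 0.62) and Hemk1 with 0.44 (-0.055 to 0.93). The pseudogene Gm17040 and the antisense transcript Gm17041 overlap Cish, and signal over them cannot be told apart from that of Cish.

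Socs2, which curbs growth hormone signalling, had the lowest level per base of the 8 genes in both tissues. The gene (ENSMUSG00000020027.18, chromosome 10, 95385362 to 95417180, minus strand, 31819 bp over all its transcripts) held 11 peaks over 24.4% of its body, and 8 of them were higher in the large intestine. They summed to 72.8 RPKM in spleen and 112.0 RPKM in the large intestine, a ratio of 0.57 (0.20 to 0.94), which is 1.49 times as high in the large intestine, and 0.49 (0.12 to 0.86) after GC correction. The protein-coding transcripts end at 95411490, and 4 of the 11 peaks lie within them and 7 beyond. Just past the coding transcripts, the 3099-bp peak had the most signal, 9.57 RPKM in spleen and 15.0 RPKM in the large intestine (0.57, 0.22 to 0.93), and the 1450-bp peak after it had 5.57 and 11.6 RPKM (0.95, 0.32 to 1.58).

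Within the coding transcripts of Socs2 the excess was at their beginning. A 544-bp peak had 4.31 and 14.4 RPKM (1.58, 0.50 to 2.67), and the peak before it, a 254-bp peak picked out after its values were seen, had 1.04 and 9.13 RPKM (2.60, 0.26 to 4.94), under 1 read in spleen. A pair of peaks over the 3' UTR did not differ beyond counting error. They had 9.11 and 9.22 RPKM (-0.029, -1.0 to 0.95) and 9.30 and 9.38 RPKM (-0.033, -1.14 to 1.08). The 544-bp peak is rich in GC (67.8%) and in CpGs, unlike the peaks shown for Jak1 and Jak2, and GC correction lowered its ratio to 1.11. Past the last GC class, with a median of 64.6%, the trend is held level, as for this peak. Its central 300 bases, chr10:95414519-95414818 on the plus strand of GRCm38, hold 24 CpGs, in capitals.
Socs2 peak: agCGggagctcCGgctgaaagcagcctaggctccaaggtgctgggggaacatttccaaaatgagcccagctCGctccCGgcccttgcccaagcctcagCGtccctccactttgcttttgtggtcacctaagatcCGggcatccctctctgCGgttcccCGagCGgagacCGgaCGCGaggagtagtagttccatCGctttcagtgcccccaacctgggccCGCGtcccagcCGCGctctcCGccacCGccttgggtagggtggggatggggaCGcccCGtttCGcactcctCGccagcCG

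Socs1 and Socs3 are short genes with 1 peak each. Socs1 blocks the kinase directly and restrains interferon and common gamma chain cytokine signals, and Socs3 binds gp130 and restrains IL-6 signals. The Socs1 gene (ENSMUSG00000038037.5, chromosome 16, 10782240 to 10785536, minus strand, 3297 bp) had a 2747-bp peak with 23.4 RPKM in spleen and 27.9 RPKM in the large intestine, a ratio of 0.20 (-0.056 to 0.46). The Socs3 gene (ENSMUSG00000053113.3, chromosome 11, 117966079 to 117970047, minus strand, 3969 bp) had a 4046-bp peak with 27.9 RPKM in spleen and 32.0 RPKM in the large intestine, a ratio of 0.15 (-0.046 to 0.35). Neither gene differed between the libraries beyond counting error, and the intervals allow up to 0.46 and 0.35 toward the large intestine. This rests on the 200 bp that each read is taken to cover, a length the sources used here do not give. With 75 bp, the length read, the intervals lay above 0 for Socs1 (0.044 to 0.36) and Socs3 (0.030 to 0.27). With peaks that overlap the body, Socs1 gave -0.046 (-0.33 to 0.24). That choice takes in an 808-bp peak across its end with 11.4 RPKM in spleen and 6.95 RPKM in the large intestine (-0.73, -1.50 to 0.044). With the body extended by 5 kb, Socs1 gave 0.24 (-0.090 to 0.56).

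Both peaks are GC-rich, 59.4% in Socs1 and 58.8% in Socs3, and GC correction took the ratios to -0.13 (-0.39 to 0.13) and -0.16 (-0.36 to 0.034), the other side of 0. The ratio of Cish was above that of Socs1 by 0.43 (Socs1 minus Cish was -0.43, -0.77 to -0.091) and above that of Socs3 by 0.48 (-0.48, -0.77 to -0.19), and Socs2 was above Socs3 by 0.42 (0.0038 to 0.84). Cish was also above Jak2 (Jak2 minus Cish was -0.32, -0.57 to -0.067). These were the 4 pairs without Jak1, of 28 pairs in all, whose interval left out 0. Such pairs numbered 10 weighted by peak length and 11 after GC correction. After GC correction Jak2 no longer differed from Cish (Jak2 minus Cish was 0.057, -0.19 to 0.31). Jak2 was then above Jak3, Tyk2, Socs1 and Socs3 beyond counting error. Near Socs1, Clec16a had 0.37 (0.22 to 0.52), and near Socs3, Pgs1 had 0.019 (-0.14 to 0.17).

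**Figure D3:**
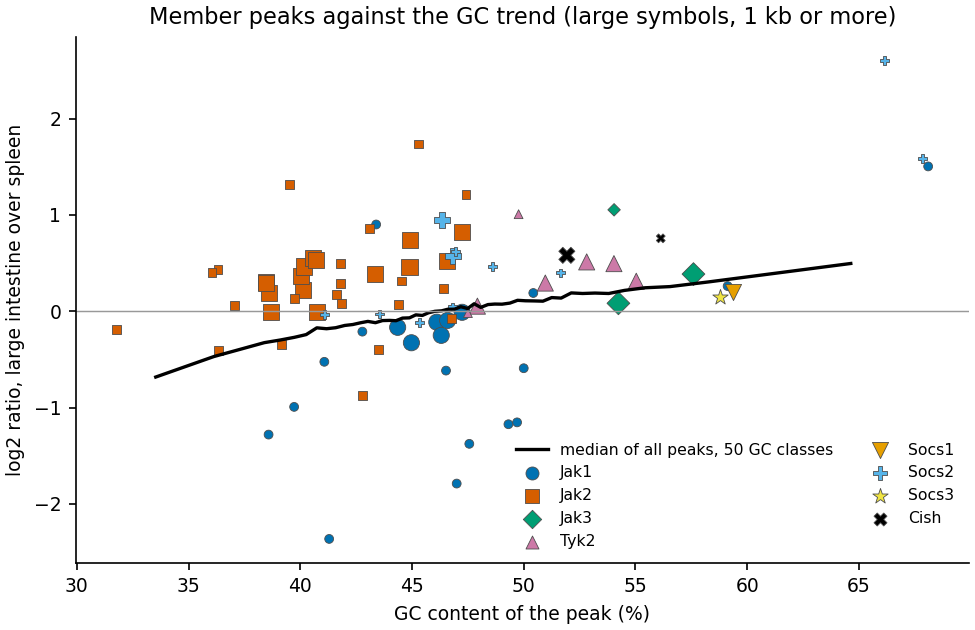
Log2 ratio of large intestine over spleen (y axis) against GC content in percent (x axis) for the 82 peaks of the 8 genes, large symbols being peaks of 1 kb or more. The line is the median ratio of all peaks in 50 GC classes. The long peaks of Jak2 lie at 38.5 to 47.3% GC and above the line, those of Jak1 lie below it, and the single peaks of Socs1 and Socs3 lie under it at 59.4 and 58.8% GC.

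Per peak, 53 of the 82 peaks were higher in the large intestine (48.9% of all peaks were), 20 had an interval above 0 (7.11% of all peaks) and 2, both in Jak1, an interval below 0 (7%). Past 2-fold were 8 peaks toward the large intestine (9% of all peaks) and 6, all in Jak1, toward spleen (9.65%). Long peaks carry less counting error. Of the 33 peaks of 1 kb or more, 25 were higher in the large intestine, where 51.1% of all such peaks were, and 6 of the 8 that were not belonged to Jak1. Intervals lay above 0 in 15 of the 33 (13.2% of all such peaks) and below 0 in 1 (9.38%). The kinases held 67 of the 82 peaks, and 36 of these were in Jak2, so counts of peaks mostly describe that gene. Peaks of 1 gene share libraries and are no replicates.

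Compared per covered base, and as deposited, the level differed more between genes than between tissues. In spleen the order was Jak3 (31.8 RPKM), Socs3 (27.9), Cish (24.5), Jak1 (23.5), Socs1 (23.4), Tyk2 (18.4), Jak2 (11.8) and Socs2 (7.56 RPKM). Neighbours from Socs3 to Socs1 did not differ beyond counting error, and the other neighbours did. In the large intestine it was Jak3 (42.6 RPKM), Cish (38.3), Socs3 (32.0), Socs1 (27.9), Tyk2 (24.5), Jak1 (22.0), Jak2 (15.5) and Socs2 (12.3 RPKM). There the difference was within counting error between Socs3 and Socs1 (4.18 RPKM, -0.092 to 8.44) and between Socs1 and Tyk2 (3.36 RPKM, -0.0010 to 6.73). Jak1 went from the fourth place to the sixth and Cish from the third to the second. These places are not corrected for GC content. Socs1 (59.4%) and Tyk2 (52.1%), which passed Jak1 (46.3%), are richer in GC, and its part in the shifts was not tested. The median of the genes tested was 12.5 RPKM in spleen and 13.3 RPKM in the large intestine, so Jak3 lay above 98.5% and 99.6% of them and Socs2 above 7.18% and 41.5%.

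**Figure D4:**
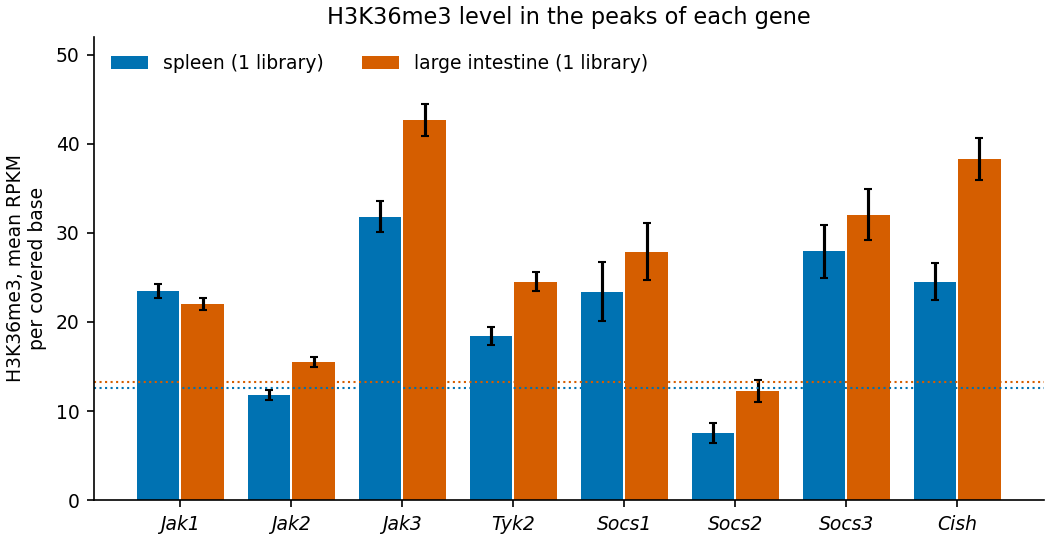
Mean RPKM per covered base of the peaks of each gene (y axis) in the spleen and large intestine libraries, 1 each, with bars for the approximate 95% counting interval and dotted lines for the medians of the genes tested (12.5 and 13.3 RPKM). Jak3 is highest in both tissues and Socs2 lowest, and Jak1 is the gene whose spleen bar is the taller.

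Many of the genes tested had ratios like these. Within 0.05 of the ratio lay 594 of the genes tested for Jak1, 619 for Jak2, 470 for Jak3, 519 for Tyk2, 981 for Socs1, 280 for Socs2, 1150 for Socs3 and 230 for Cish. With 1 library a tissue, the pattern of a gene is this 1 ratio, and no gene is named for likeness.

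STAT dimers bind TTCNNNGAA, so this motif was looked for in the promoter windows of RefSeq, 250 bases before to 50 after the start on GRCm38.p6. It reads the same on both strands. The table held a window for 7 of the 8 genes, all but Socs2, and of all 32851 windows 2726 (8.30%) held the motif and 150 (0.457%) held it at least 2 times. Cish had it 2 times and Socs3 had it 1 time, and the other 5 windows did not hold it. The 7 windows had no H3K36me3 peak over them. The rule set for showing a window was a peak over it, which 0 of the 7 met. The windows of Cish (chr9:107296409-107296708, plus strand) and Socs3 (chr11:117969317-117969616, minus strand) are shown instead because they hold the motif, in capitals. They were picked after the values had been seen, and a match is a description of the letters.
Cish promoter: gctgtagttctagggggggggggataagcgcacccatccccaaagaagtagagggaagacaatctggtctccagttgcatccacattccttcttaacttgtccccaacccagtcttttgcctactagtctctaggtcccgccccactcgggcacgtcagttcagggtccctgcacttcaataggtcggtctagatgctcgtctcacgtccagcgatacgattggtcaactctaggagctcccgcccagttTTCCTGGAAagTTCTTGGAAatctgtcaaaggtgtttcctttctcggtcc
Socs3 promoter: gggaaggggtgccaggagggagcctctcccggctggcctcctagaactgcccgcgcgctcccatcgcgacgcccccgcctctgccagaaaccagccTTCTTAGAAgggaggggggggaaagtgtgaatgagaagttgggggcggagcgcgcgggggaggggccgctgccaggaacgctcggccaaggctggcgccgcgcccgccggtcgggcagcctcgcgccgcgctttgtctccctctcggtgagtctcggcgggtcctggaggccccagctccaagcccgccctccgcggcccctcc

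Other genes of the pathway had ratios in both directions. Of 18 cytokine receptor genes tested, 8 were higher in the large intestine and 10 in spleen (50.7% and 49.3% of the genes tested were). Beyond counting error were 6 and 4 of them (17.9% and 15.2%). The median was -0.063 against 0.0049 for the genes tested. GC correction gave a median of -0.012, and with peaks assigned to the nearest transcript start it was 0.14 over 15 genes. Il6ra, the IL-6 receptor chain that signals through gp130 and Jak1, was past 2-fold toward spleen (397.5 RPKM in spleen and 170.6 RPKM in the large intestine, -1.26, -1.48 to -1.05), and -1.39 after GC correction. Il9r, which signals through Jak1 and Jak3, had the highest ratio (55.5 and 102.9 RPKM, 0.84, 0.46 to 1.22). After GC correction it was 0.58, below Ifngr1 at 0.69. Of the other listed receptors Il12rb2 had no peak and Il23r was below 20 RPKM.

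The 7 STAT genes had a median of 0.17 (0.086 after GC correction and 0.033 weighted by peak length). Higher in the large intestine were 4 (50.7% of the genes tested were), 3 of them beyond counting error (17.9%), and none was beyond it toward spleen (15.2%). Stat3, which carries IL-6, IL-10 and IL-23 signals, was the highest (245.9 and 389.3 RPKM, 0.62, 0.49 to 0.74), and Stat6, which carries IL-4 signals, the lowest (66.8 and 65.9 RPKM, -0.065, -0.21 to 0.080). GC correction gave 0.63 for Stat3, 0.64 for Stat4 and -0.17 for Stat6. The other SOCS box genes tested were 4, with 3 higher in the large intestine (50.7% of the genes tested were). Beyond counting error were 0 toward the large intestine (17.9%) and 0 toward spleen (15.2%). They ranged from Socs6 (57.1 and 45.2 RPKM, -0.38, -0.93 to 0.16) to Socs4 (18.8 and 27.1 RPKM, 0.47, -0.23 to 1.16), with -0.41 and 0.53 after GC correction. Their median was 0.16, and 0.11 after GC correction.

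Negative regulators of other kinds were counted next. Of 12 phosphatases, PIAS proteins, adaptors and ubiquitin ligases, 9 were higher in spleen (49.3% of the genes tested were), 4 beyond counting error (15.2%). Toward the large intestine 1 was beyond it (17.9%). The median was -0.11, and -0.071 after GC correction. Ptprc, which encodes the phosphatase CD45, was the lowest (698.0 and 508.1 RPKM, -0.50, -0.62 to -0.38), and Pias3, an inhibitor of STAT3, the highest (55.3 and 67.2 RPKM, 0.23, -0.062 to 0.53). After GC correction Ptprc was at -0.23, above Ptpn6 at -0.60, Sh2b3 at -0.38 and Pias2 at -0.33, and Pias3 was at 0.047. Of 9 genes tested and known as STAT5 targets, 6 were higher in spleen (49.3% of the genes tested were), 3 beyond counting error (15.2%). The other 3 were higher in the large intestine, 2 beyond counting error (17.9%). The median was -0.16, and -0.23 after GC correction. The list held 10 genes, and Lif (7.20 and 12.2 RPKM) was below 20 RPKM. Bcl2, which protects cells from apoptosis, was past 2-fold toward spleen (405.9 and 136.7 RPKM, -1.61, -1.89 to -1.33), and -1.66 after GC correction. Pim2, a survival kinase, had the highest ratio (14.0 and 24.1 RPKM, 0.71, -0.40 to 1.82), which was within counting error and 0.41 after GC correction. These lists hold between 4 and 18 tested genes, and nothing particular to a list is read from them.

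**Figure D5:**
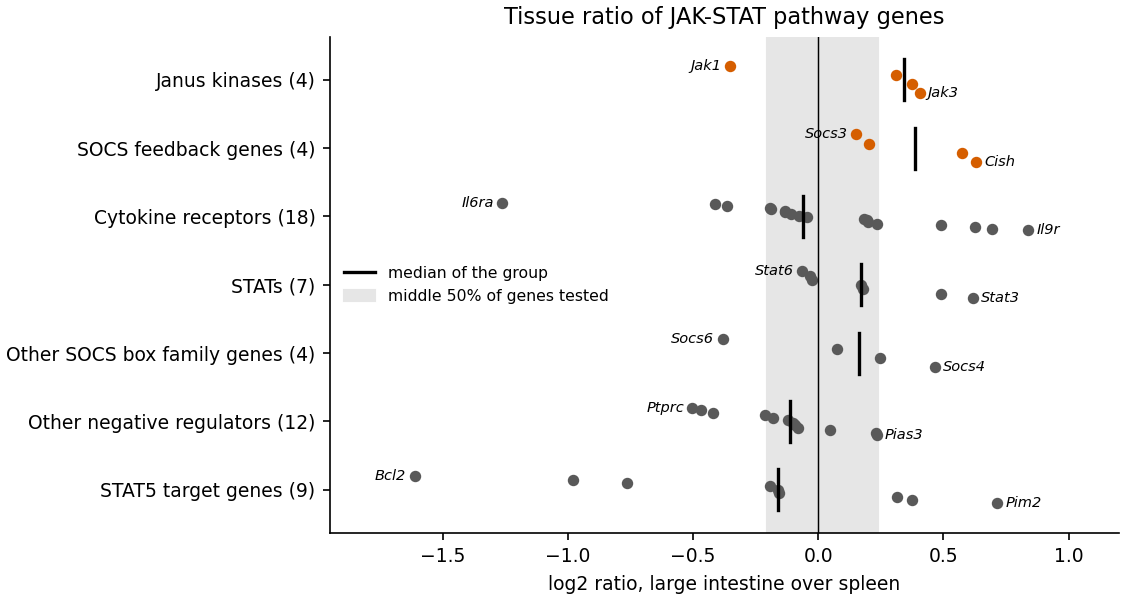
Log2 ratio of large intestine over spleen (x axis) for each gene of the Janus kinases and SOCS feedback genes (orange) and of 5 other lists (grey points), with the number tested in brackets, a bar at the median and a grey band for the middle 50% of the genes tested. Il6ra and Bcl2 lie past 2-fold toward spleen, and Jak1 is the kinase on the spleen side.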

How the data were processed

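Per the labels and the study's methods, the authors aligned single-end 75-nt reads to mm10, called peaks in each tissue with MACS2 at p 0.01 against the input, merged the peaks with bedtools and averaged RPKM coverage tracks over each merged peak. The submitters' processing notes name Bowtie2, FastQC, MACS2 and bedtools. The deposited values are therefore mean RPKM per peak, and although the table is named for raw counts, the values in it are not whole. How far reads were extended is not given in the sources used here.

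The names and lengths of chromosomes were checked against GRCm38, and 0 of 21 chromosomes had a peak past its end. Depth was worked out from the smallest step between values, 1.69 RPKM in spleen and 1.31 RPKM in the large intestine, as the worth of 1 read in a 20-bp bin. Peaks were assigned by midpoint to GENCODE M21 bodies and summed per gene with Python 3.11.15, numpy 2.4.6 and pandas 2.3.3. Ratios used a pseudocount of 0.5 RPKM and, over all genes, a filter of 20 RPKM over both libraries. A ratio on the log2(value + pseudocount) scale is pulled toward 0 where values are low. GC correction divided the large intestine value of a peak by the trend of the median ratio over 50 GC classes of all peaks. No test was run, since each tissue had 1 library.

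The genes, the pathway and marker lists and the rules were chosen with earlier results of these data known. A further marker of the B cell list is not reported here. Named were the 8 genes, all peaks of those with 6 peaks or fewer, for the others the 3 peaks with the most signal and the 2 in each direction with the most extreme interval bound, and of each list the genes past 2-fold, the highest and the lowest. Ifngr1, Stat4, Ptpn6, Sh2b3 and Pias2 were named after their values were seen. Alternatives to the scaling, the pseudocount, the peak assignment, the weighting and the base composition were computed.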

Additional observations from a re-analysis of the deposited data

How the results depend on the processing

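Of the 101 ratios of the 8 genes under alternatives, 88 stayed within the 95% counting interval reported for the gene, and 0 changes of sign were seen in the 6 genes whose reported interval left out 0. Many of the 101 could hardly move, so the 88 is no measure of robustness. A change of scaling shifts every ratio by the same amount, at most 0.046. Several alternatives also took in the same peaks as the reported ratio, as for the 1 peak of Socs3. For Jak1 the ratio was -0.043 with peaks assigned to the nearest transcript start, -0.14 weighted by peak length, -0.16 with peaks of 1 kb or more and -0.011 with the strongest peak alone. Jak2 gave 0.46 with the strongest peak and 0.50 after GC correction. Jak3 gave 1.05 by nearest start, 0.16 after GC correction, and 1.05 when peaks touching another gene were left out, an alternative added after seeing the data that leaves 1 short peak, as nearest start does. GC correction gave -0.13 for Socs1 and -0.16 for Socs3, and Socs3 gave -0.17 with the body extended by 5 kb and -0.43 (-0.84 to -0.021) by nearest start, an interval below 0. Cish had no peak by nearest start, nor did Cish or Tyk2 without peaks touching another gene. Members with an interval above 0 numbered 3 by nearest start, where 1 was past 2-fold and 1, Socs3 rather than Jak1, had one below 0, and 0 had one below 0 with the strongest peak. With reads taken to cover 75 bp, 7 had one above 0, Socs1 and Socs3 among them. Over all genes, those past 2-fold toward the large intestine numbered 623 with no filter and 70 at 200 RPKM, and toward spleen 459, 39 and, with a pseudocount of 5, 145. Intervals above 0 numbered 877 at 200 RPKM and 1281 after GC correction, and below 0 973 at 200 RPKM, where fewer genes were tested. Among member peaks of 1 kb or more, 75.8% were higher in the large intestine and 45.5% had an interval above 0. The cause of these moves was not tested. List medians stayed within the spread of their genes, but that of the cytokine receptors changed sign by nearest start (-0.063 to 0.14) and that of the STATs was 0.033 weighted by length.

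No paired analysis was possible because each tissue had 1 library. Counting error limits short peaks most, at a few reads each, and the spread between mice cannot be seen in pooled cells.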
